A study of Homo sapiens with 21 samples.

Results

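The genes described are 10 immediate early genes, FOS, FOSB, FOSL1, FOSL2, JUN, JUNB, JUND, EGR1, EGR3 and IER2, found by symbol in both count tables, which list 28008 genes each. Messenger RNA was sequenced in 21 libraries, 3 in each of 7 groups. Of these, 18 carry the label of OCI-AML3, a human acute myeloid leukaemia line, and 3 that of K562, a line from chronic myeloid leukaemia in blast crisis. Sequencing batch 1 held OCI-AML3 parental cells (genotype WT, treatment N/A), OCI-AML3 vehicle cells (WT, treatment DMSO), OCI-AML3 cells labelled resistant (genotype Res, treatment StAMP, biological replicate 1, called resistant 1) and K562 parental cells (WT, treatment N/A). Sequencing batch 2 held OCI-AML3 vehicle, resistant 1 and resistant 2, the last from biological replicate 2 of the cells labelled resistant. What StAMP stands for is not spelled out, though the title speaks of stapled peptides. The sources used here give no dose, time or selection scheme, and do not say whether a resistant line is 1 clone. Replicate libraries are not described as separate cultures, so a p-value here reflects only how far these libraries differ among themselves.

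Proteins of the FOS family pair with proteins of the JUN family to form AP-1, a leucine zipper transcription factor that binds the motif TGANTCA, and JUN proteins can also pair with each other. FOS, FOSB, JUN, JUNB, EGR1, EGR3 and IER2 are classic immediate early genes, switched on briefly within minutes of serum, growth factors or stress without new protein synthesis, while JUND is expressed more steadily. In myeloid cells, AP-1 and EGR1 are known for their part in monocyte and macrophage differentiation.

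The 9 libraries labelled resistant did not look like the OCI-AML3 libraries they were compared with. Across 10159 genes, resistant 1 of batch 1 correlated with K562 at 0.978 to 0.979 and with vehicle at 0.484 to 0.486. In batch 2, resistant 1 correlated with vehicle at 0.519 to 0.542 and resistant 2 at 0.520 to 0.540. Their correlations with K562, which was sequenced in batch 1, were 0.911 to 0.941 and 0.903 to 0.931. The levels of 12 erythroid markers were summed in CPM (counts scaled to the size of the library). The sum was 12.2 to 20.9 in parental and vehicle libraries and 4735 to 4876 in K562. It was 4835 to 5145 in resistant 1 of batch 1. In batch 2 it was 1687 to 1808 in resistant 1 and 1043 to 1543 in resistant 2. The 12 myeloid markers summed to 2292 to 2831 CPM in parental and vehicle libraries and 41.0 to 45.3 CPM in K562. They summed to 87.0 to 89.4 CPM in resistant 1 of batch 1. In batch 2 they summed to 177 to 209 CPM in resistant 1 and 134 to 146 CPM in resistant 2. HOXA9 was at 0 in all 9 libraries labelled resistant. In each resistant group, 11 of the 12 myeloid markers were lower than in vehicle of the same batch and 1 was higher, at an adjusted p under 0.05 (edgeR). The sum of 7 fibroblast and lymphocyte markers was at most 28.9 CPM in any library, but differed between groups. In batch 1 it was 2.87 to 5.19 CPM in parental and vehicle, 9.35 to 10.7 CPM in resistant 1 and 25.2 to 27.6 CPM in K562. In batch 2 it was 0.0856 to 0.340 CPM in vehicle, 4.31 to 7.23 CPM in resistant 1 and 14.6 to 28.9 CPM in resistant 2. The part of this shift in profile and markers in the results below was not tested, and a change of cell line and resistance cannot be told apart. Counts per library, in mega counts (M), were between 14.1 and 21.1 M in batch 1 and between 30.7 and 51.3 M in batch 2. CPM were scaled by TMM (trimmed mean of M values) within each batch, so levels of the batches stand side by side on separate scales.

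Promoter sequences are shown for FOS, EGR1 and JUNB, whose levels varied together between batch 2 libraries, and for JUN, which was higher in the libraries labelled resistant where FOS and JUNB were lower. Each run is the 250 bases before the RefSeq start of the gene in GRCh38.p14, from 5′ to 3′ on the gene's strand. Positions are chr14:75278578-75278827 (plus strand) for FOS, chr5:138465229-138465478 (plus) for EGR1, chr19:12791236-12791485 (plus) for JUNB and chr1:58784048-58784297 (minus) for JUN. Capitals mark matches, on either strand, to the CArG box bound by serum response factor, the cyclic AMP response element TGACGTCA, its half-site TGACG (which lies within it), the AP-1 motif TGANTCA and the EGR motif GCGNGGGCG.
FOS: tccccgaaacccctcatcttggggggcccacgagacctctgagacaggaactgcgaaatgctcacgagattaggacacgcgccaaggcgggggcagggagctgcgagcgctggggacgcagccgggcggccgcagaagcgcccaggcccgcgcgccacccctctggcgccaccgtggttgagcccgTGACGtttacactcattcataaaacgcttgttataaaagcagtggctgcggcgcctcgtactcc
EGR1: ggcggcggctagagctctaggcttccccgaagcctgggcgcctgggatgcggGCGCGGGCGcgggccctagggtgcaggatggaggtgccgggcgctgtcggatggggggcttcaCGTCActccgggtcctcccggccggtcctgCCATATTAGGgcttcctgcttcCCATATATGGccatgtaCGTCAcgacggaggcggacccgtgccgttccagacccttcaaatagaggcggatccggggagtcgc
JUNB: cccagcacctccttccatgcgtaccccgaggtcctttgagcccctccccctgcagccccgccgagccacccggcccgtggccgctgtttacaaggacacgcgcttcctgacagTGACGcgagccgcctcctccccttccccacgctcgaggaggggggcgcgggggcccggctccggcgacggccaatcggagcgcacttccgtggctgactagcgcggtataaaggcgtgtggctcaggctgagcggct
JUN: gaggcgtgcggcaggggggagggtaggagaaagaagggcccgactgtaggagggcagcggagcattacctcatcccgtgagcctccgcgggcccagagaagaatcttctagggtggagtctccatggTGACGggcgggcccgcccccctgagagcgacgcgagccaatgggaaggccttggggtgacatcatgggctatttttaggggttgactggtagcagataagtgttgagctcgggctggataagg
EGR1 held 2 CArG matches, 105 and 83 bases before its start, 2 half-sites at 135 and 66 bases, and 1 EGR match at 198 bases. FOS, JUNB and JUN each held 1 half-site, at 64, 137 and 123 bases before the start. In all 35116 promoter windows of the RefSeq table, of 250 bases before to 50 after a start, a CArG match was found in 1.29%, a full element in 1.85%, a half-site in 24.6%, an AP-1 match in 7.71% and an EGR match in 9.43%. Of the 8 genes whose window was read, JUND held the full element, 200 bases before its start, and FOSL2 an AP-1 match 4 bases after its start and 2 half-sites. FOSB and IER2 held 1 half-site each. These matches describe letters and not occupied sites. Sequence outside the window was not searched, so a gene without a match here may hold one farther upstream.

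In hg38 (GENCODE annotation), FOS spans chr14:75278826-75282230, FOSB chr19:45467995-45475179, FOSL1 chr11:65892049-65900573 (minus strand), FOSL2 chr2:28392448-28417317, JUN chr1:58776845-58784048 (minus), JUNB chr19:12791486-12793315, JUND chr19:18279694-18281622 (minus), EGR1 chr5:138465479-138469303 and IER2 chr19:13150411-13154911. FOSB overlaps ERCC1, and JUNB overlaps HOOK2, on the opposite strand. Libraries were strand-specific, but no source used here gives the strand setting of the counting, so reads of these overlapping pairs may not be fully separated.

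Resistant 1 against vehicle in batch 1 compares cells labelled resistant to StAMP with cells kept in DMSO. FOSL2 and FOS stood near 0, at 3.06 against 109 CPM and 1.84 against 39.3 CPM. JUNB and EGR1 were lower by less, JUN and JUND were higher, and FOSL1 and IER2 were slightly higher. Of the 9 genes tested, 8 passed an adjusted p of 0.05, with 4 higher and 4 lower, while 86.0% of all 14505 genes passed (44.0% higher and 42.1% lower), so the count itself is near the background. Adjusted p-values are those of edgeR's quasi-likelihood F test with Benjamini-Hochberg adjustment over every gene in a fit, and errors of log2 fold changes are standard errors.

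FOS, the founding member of its family, stood at 38.2, 42.7 and 37.0 CPM in the vehicle libraries of batch 1 and at 1.99, 2.25 and 1.27 CPM in resistant 1. The groups were far apart, the resistant values rested on 19 to 42 counts, and FOS fell by 4.29 ± 0.12 on the log2 scale (adjusted p = 2.25e-22). In bulk RNA, fewer cells expressing a gene and less of its RNA per cell cannot be told apart. FOSL2 (Fra-2), a FOS relative without the strong activation domain of FOS, stood at 109, 103 and 115 CPM in vehicle and at 2.66, 3.44 and 3.08 CPM in resistant 1. Its log2 fold change was -5.07 ± 0.11 (adjusted p = 2.94e-24), the lowest of the 9 genes tested, and the groups did not overlap.

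FOSL1 (Fra-1), the other small relative, went the other way, from 10.8 to 12.5 CPM in vehicle to 13.9 to 16.1 CPM in resistant 1. The groups did not overlap and the log2 fold change was 0.41 ± 0.094 (adjusted p = 0.000245). FOSB was low in both, at 1.86 to 2.26 CPM in vehicle and 1.33 to 2.48 CPM in resistant 1, with overlapping libraries and a log2 fold change of 0.0086 ± 0.26 (adjusted p = 0.976).

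JUN, the partner that can also act as a homodimer, stood at 11.8, 14.03 and 13.3 CPM in vehicle and at 32.1, 33.8 and 31.6 CPM in resistant 1, an increase of 1.40 ± 0.088 on the log2 scale (adjusted p = 3.02e-14). JUNB, which can restrain JUN activity, stood at 80.7, 88.9 and 92.3 CPM in vehicle and 33.1, 38.6 and 29.8 CPM in resistant 1, and fell by 1.27 ± 0.075 on the log2 scale (adjusted p = 2.54e-14). Thus every resistant 1 library was above every vehicle library for JUN and below it for JUNB. JUND, the most steadily expressed JUN protein, was at 35.5 to 38.5 CPM in vehicle and 48.5 to 64.4 CPM in resistant 1, with a log2 fold change of 0.65 ± 0.078 (adjusted p = 2.14e-08).

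EGR1, a zinc finger factor that binds GC-rich sites, stood at 52.1, 55.8 and 47.7 CPM in vehicle and 26.2, 27.1 and 29.0 CPM in resistant 1. The groups did not overlap, and EGR1 fell by 0.84 ± 0.074 on the log2 scale (adjusted p = 4.42e-11). EGR3, a relative of EGR1, had 10, 12 and 6 counts in vehicle and 4, 0 and 2 counts in resistant 1, and did not pass the low-count filter. IER2, a nuclear protein of the same early response, was at 77.0, 84.0 and 87.3 CPM in vehicle and 86.2, 97.0 and 82.7 CPM in resistant 1. The groups overlapped, the log2 fold change was 0.19 ± 0.063 (adjusted p = 0.00738), and the call was lost without resistant 1 replicate 2 (0.11, adjusted p = 0.097) or vehicle replicate 1 (0.12, adjusted p = 0.0992).

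**Figure D1:**
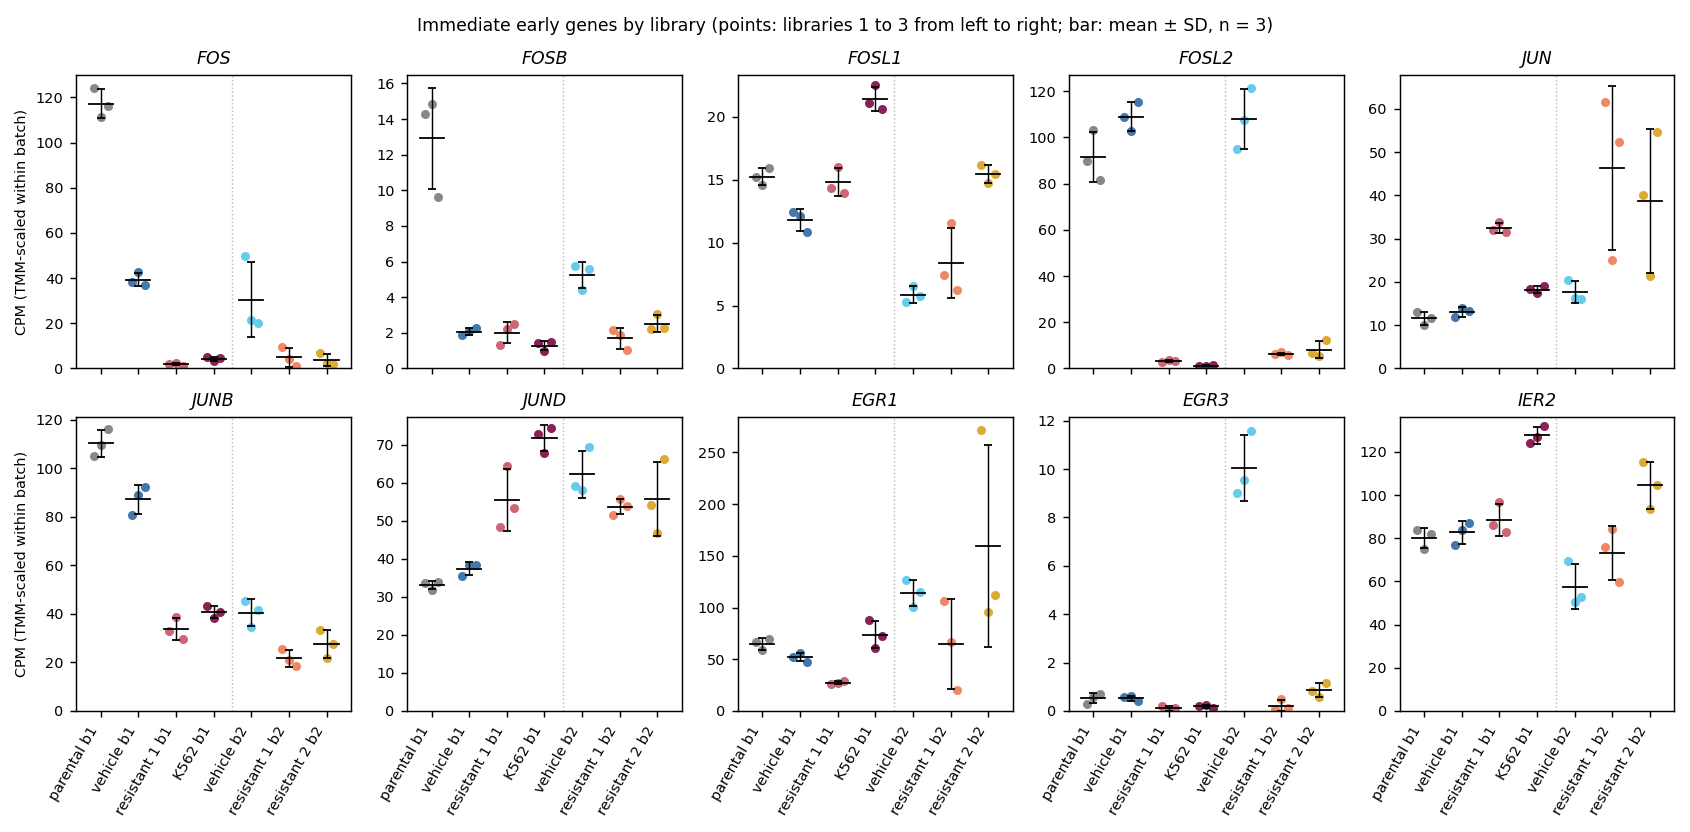
CPM (linear axis, TMM-scaled within each batch) of the 10 genes in each library of the 7 groups; points are libraries 1 to 3, the bar is the mean and the error bar the SD (n = 3), and the dotted line parts batch 1 (b1) from batch 2 (b2). FOS and FOSL2 are low in K562 and in every library labelled resistant, between 1.05 and 12.2 CPM, and the points of FOS, JUN and EGR1 spread widely in the batch 2 groups labelled resistant.

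K562 parental against OCI-AML3 parental in batch 1 shows how far the 2 cell lines differ in these genes without treatment. FOS, FOSB, FOSL2 and JUNB were lower in K562, and FOSL1, JUN, JUND and IER2 were higher. Of the 9 genes tested, 8 passed, with 4 higher and 4 lower, against 85.1% of all genes (42.6% higher and 42.5% lower). FOSL2 stood at 89.7, 103 and 81.7 CPM in OCI-AML3 parental and at 1.21, 1.05 and 1.40 CPM in K562 (17 to 27 counts), and fell by 6.18 ± 0.13 on the log2 scale (adjusted p = 7.36e-20). FOS stood at 124, 111 and 116 CPM in OCI-AML3 parental and at 4.99, 3.26 and 4.47 CPM in K562, a log2 fold change of -4.76 ± 0.099 (adjusted p = 2.27e-20). Neither gene overlapped between the lines.

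FOSB stood at 14.3, 14.8 and 9.64 CPM in OCI-AML3 parental, its highest level in batch 1, and at 1.42, 0.984 and 1.46 CPM in K562 (log2 fold change -3.29 ± 0.20, adjusted p = 1.5e-11). JUNB stood at 105, 109.7 and 116 CPM in parental and 43.5, 38.1 and 40.7 CPM in K562, and fell by 1.41 ± 0.065 on the log2 scale (adjusted p = 1.43e-14). The JUND values were 33.7, 31.9 and 34.0 CPM in parental and 73.0, 68.0 and 74.4 CPM in K562, with no overlap and a log2 fold change of 1.14 ± 0.066 (adjusted p = 6.8e-13). JUN was at 10.03 to 13.1 CPM in parental and 17.3 to 19.0 CPM in K562, a log2 fold change of 0.67 ± 0.10 (adjusted p = 4.32e-06).

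FOSL1 was at 14.6 to 15.9 CPM in parental and 20.7 to 22.5 CPM in K562 (log2 fold change 0.52 ± 0.086, adjusted p = 1.22e-05). IER2 was at 75.1 to 83.9 CPM in parental and 124 to 132 CPM in K562 (log2 fold change 0.70 ± 0.057, adjusted p = 2.95e-10). EGR1 overlapped between the lines, at 66.8, 58.6 and 69.5 CPM in parental and 87.7, 61.3 and 72.5 CPM in K562, with a log2 fold change of 0.21 ± 0.13 (adjusted p = 0.148). It passed without K562 replicate 2 (0.32, adjusted p = 0.00179) or with no low-count filter (0.21, adjusted p = 0.00283). This comparison shares no library with that of resistant 1 and vehicle in batch 1, and of the 7 genes called in both, 7 had the same sign. So did 97.3% of the 10809 genes called in both over the whole table, so this is the background.

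Resistant 1 set directly against K562 in batch 1 differed in 8 of 9 genes tested, 2 higher and 6 lower, with 59.8% of all genes called (31.3% higher and 28.5% lower). JUN and FOSL2 were higher in resistant 1, by 0.84 ± 0.072 (adjusted p = 2.34e-09) and by 1.30 ± 0.22 (adjusted p = 2.74e-05) on the log2 scale. EGR1, at 26.2 to 29.0 CPM in resistant 1 and 61.3 to 87.7 CPM in K562, was lower by the most, with a log2 fold change of -1.43 ± 0.12 (adjusted p = 4.61e-06), and FOS followed with -1.17 ± 0.21 (adjusted p = 6.33e-05). FOS too was low in both groups, at 1.84 against 4.24 CPM on 19 to 42 and 53 to 86 counts. FOSL1 (-0.53), IER2 (-0.53), JUND (-0.37) and JUNB (-0.26) were also lower in resistant 1, at adjusted p-values of 3.52e-08 to 0.00657. FOSB missed the threshold (0.60 ± 0.27, adjusted p = 0.0612). Its call was gained with upper quartile scaling (0.64, adjusted p = 0.0446) or without resistant 1 replicate 1 (0.85, adjusted p = 0.0098), and that of JUNB was lost without resistant 1 replicate 3 (-0.19, adjusted p = 0.0567).

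Vehicle against OCI-AML3 parental in batch 1 compares cells labelled DMSO with cells labelled N/A for treatment. No source used here says whether the groups also differ in time in culture. FOSB, FOS, FOSL1, JUNB and EGR1 were lower in vehicle and FOSL2 slightly higher. These were 6 of the 9 genes tested, with 37.0% of all genes called. FOS went from the 111 to 124 CPM of parental to 37.0 to 42.7 CPM, and fell by 1.60 ± 0.068 on the log2 scale (adjusted p = 3.35e-16). FOSB went from 9.64 to 14.8 CPM down to 1.86 to 2.26 CPM, and fell by 2.68 ± 0.18 (adjusted p = 2.45e-11). Both genes were separate between the groups, and vehicle FOSB overlapped resistant 1.

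Smaller changes were found for FOSL1 (log2 fold change -0.40 ± 0.095, adjusted p = 0.00174), JUNB (-0.37 ± 0.068, adjusted p = 0.000132) and EGR1 (-0.35 ± 0.069, adjusted p = 0.000225), again without overlap. FOSL2 overlapped, at a log2 fold change of 0.22 ± 0.068 (adjusted p = 0.0134), and was no longer called without vehicle replicate 3 (0.18), parental replicate 1 (0.21) or parental replicate 3 (0.16). JUN (0.13), JUND (0.14) and IER2 (0.013) did not pass, with adjusted p-values of 0.19 to 0.926. EGR3 was counted 5, 9 and 10 times in parental and was not tested.

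Ordered by level within batch 1, FOS was highest in parental, then vehicle, K562 and resistant 1, and no neighbours in that order overlapped. JUND ran the other way for the lines, highest in K562, then resistant 1, vehicle and parental, again with no overlap. JUN was highest in resistant 1, then K562, then vehicle and parental, which overlapped. JUNB was highest in parental, then vehicle, with K562 and resistant 1 overlapping below them. For EGR1 the lowest group was resistant 1, below vehicle, and K562 and parental overlapped at the top.

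Levels of different genes can be set beside each other only per length, here as CPM per kilobase of the canonical GENCODE transcript. In OCI-AML3 parental libraries JUNB (60.3 ± 3.03 CPM per kilobase, SD, n = 3) and FOS (55.7 ± 3.01) led the 10 genes, and JUN stood at 3.57 ± 0.467. In resistant 1 of batch 1 IER2 led (42.02 ± 3.53), followed by JUND (28.7 ± 4.24) and JUNB (18.5 ± 2.42). JUN came next at 9.98 ± 0.354, above the FOS level of 0.875 ± 0.241. In K562 the leaders were again IER2 (60.5 ± 1.85) and JUND (37.2 ± 1.76), with FOS at 2.02 ± 0.423.

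**Figure D2:**
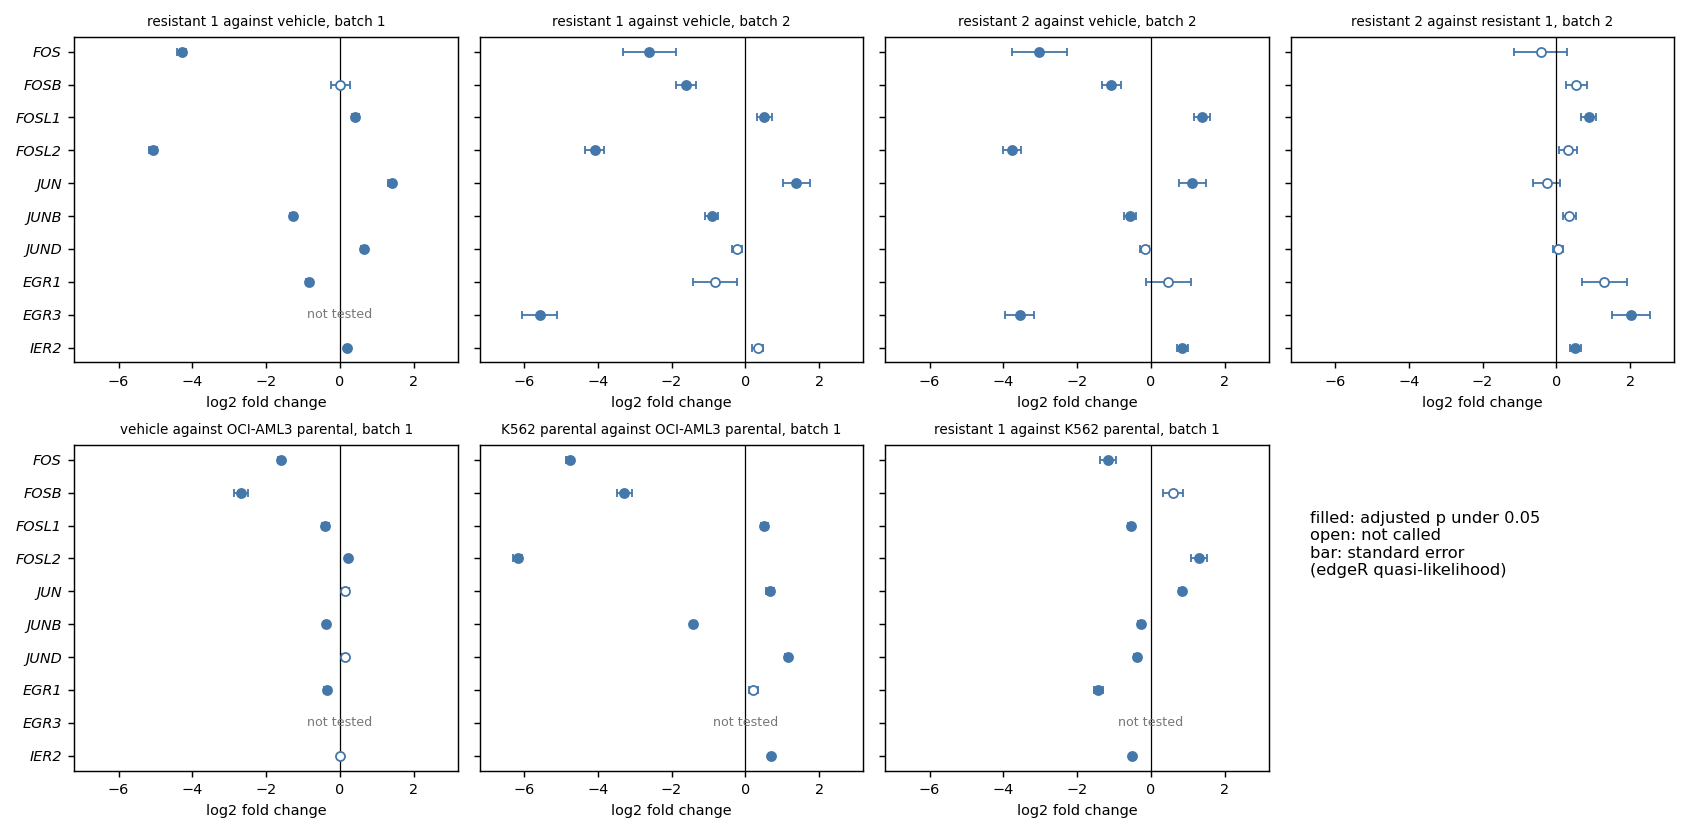
Log2 fold change (x axis) of each gene (y axis) in 7 comparisons; points are estimates, bars the standard error, filled points are called at an adjusted p under 0.05 and open points are not. FOS and FOSL2 lie left of 0 wherever resistant is set against vehicle and in K562 against parental, JUN and FOSL1 lie right of 0 there, and error bars of FOS, JUN and EGR1 are wider in batch 2.

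In batch 2, FOS, FOSB, FOSL2, JUNB and EGR3 were lower in both groups labelled resistant than in vehicle, and JUN and FOSL1 were higher. For resistant 1, 7 of the 10 genes tested passed, with 2 higher and 5 lower, while 75.7% of all genes passed (39.9% higher and 35.8% lower). For resistant 2, 8 of 10 passed, with 3 higher and 5 lower, while 76.1% of all genes passed (40.2% higher and 35.9% lower). Both comparisons use the same 3 vehicle libraries, so their values are given side by side.

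FOSL2 stood at 95.0, 107 and 121 CPM in vehicle, at 6.31, 6.90 and 5.97 CPM in resistant 1 and at 6.52, 5.35 and 12.2 CPM in resistant 2. Its log2 fold changes were -4.08 ± 0.26 (adjusted p = 6.27e-09) and -3.76 ± 0.25 (adjusted p = 1.17e-08). FOS stood at 49.6, 21.6 and 19.9 CPM in vehicle, 9.48, 4.10 and 1.21 CPM in resistant 1 and 6.96, 2.46 and 1.84 CPM in resistant 2. All resistant values were below all vehicle values, but library 1 was the highest of its group in each case. The log2 fold changes were -2.60 ± 0.73 (adjusted p = 0.00904) and -3.03 ± 0.74 (adjusted p = 0.0044).

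FOSB, at 4.41 to 5.76 CPM in vehicle, was at 1.04 to 2.15 CPM in resistant 1 and 2.22 to 3.07 CPM in resistant 2, with log2 fold changes of -1.61 ± 0.27 (adjusted p = 7.41e-05) and -1.07 ± 0.26 (adjusted p = 0.00183). FOSL1 stood at 5.28, 6.57 and 5.74 CPM in vehicle, 7.43, 11.6 and 6.23 CPM in resistant 1 and 16.2, 14.8 and 15.5 CPM in resistant 2. Resistant 2 was above all other libraries of the batch, whereas resistant 1 overlapped vehicle. The log2 fold changes were 0.51 ± 0.21 (adjusted p = 0.0358) and 1.39 ± 0.21 (adjusted p = 2.3e-05). The first of these calls was lost without resistant 1 replicate 2 (0.22, adjusted p = 0.267), vehicle replicate 1 (0.46, adjusted p = 0.101) or vehicle replicate 3 (0.51, adjusted p = 0.0788), and when only the 2 groups were fitted (0.52, adjusted p = 0.0503).

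JUN stood at 20.5, 16.2 and 16.1 CPM in vehicle, 61.4, 25.1 and 52.2 CPM in resistant 1 and 40.1, 21.4 and 54.6 CPM in resistant 2. Every library labelled resistant was above every vehicle library, and library 2 was the lowest of both resistant groups. The log2 fold changes were 1.38 ± 0.37 (adjusted p = 0.00665) and 1.12 ± 0.37 (adjusted p = 0.0186). The JUN call of resistant 2 was lost without its replicate 3 (0.80, adjusted p = 0.0584), without vehicle replicate 3 (1.07, adjusted p = 0.0578) or with no low-count filter (1.13, adjusted p = 0.0668).

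JUNB stood at 45.4, 34.7 and 41.6 CPM in vehicle, 25.4, 20.8 and 18.6 CPM in resistant 1 and 33.6, 22.0 and 27.5 CPM in resistant 2, with no overlap with vehicle. Its log2 fold changes were -0.92 ± 0.17 (adjusted p = 0.000179) and -0.56 ± 0.17 (adjusted p = 0.00692). JUND was at 58.2 to 69.4 CPM in vehicle, 51.6 to 55.7 CPM in resistant 1 and 46.8 to 66.2 CPM in resistant 2, and did not pass in either (log2 fold change -0.22, adjusted p = 0.137, and -0.17, adjusted p = 0.245). Without resistant 2 replicate 3 the second became -0.31 (adjusted p = 0.0434).

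EGR3 was measurable in batch 2, at 9.01, 9.53 and 11.6 CPM in vehicle, 0.0591, 0.475 and 0.0979 CPM in resistant 1 and 0.825, 0.587 and 1.15 CPM in resistant 2. Its log2 fold changes were -5.58 ± 0.47 (adjusted p = 7.17e-08) and -3.56 ± 0.39 (adjusted p = 1.22e-06), with 3, 19 and 3 counts behind the resistant 1 values. Without resistant 1 replicate 2, the library with 19, the first was -7.03, and over left-out libraries it reached -5.04 at the other end. Vehicle cells of batch 1 held 0.411 to 0.595 CPM, and what separates the batches in culture or sequencing cannot be told apart. EGR1 stood at 126, 101 and 115 CPM in vehicle, 107, 66.8 and 19.7 CPM in resistant 1 and 272, 95.3 and 112 CPM in resistant 2. Both resistant groups overlapped vehicle, and neither log2 fold change passed (-0.83 ± 0.61, adjusted p = 0.245, and 0.47 ± 0.60, adjusted p = 0.494). Without replicate 1 of resistant 2 the second was -0.15.

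IER2 stood at 69.6, 50.2 and 52.7 CPM in vehicle, 75.8, 84.2 and 59.7 CPM in resistant 1 and 115, 93.6 and 105 CPM in resistant 2. Only resistant 2 was clear of vehicle, with a log2 fold change of 0.85 ± 0.15 (adjusted p = 0.000132). For resistant 1 it was 0.34 ± 0.15 (adjusted p = 0.055). That value passed with the library number as a block (0.35, adjusted p = 0.021), upper quartile scaling (0.41, adjusted p = 0.0272), no low-count filter (0.35, adjusted p = 0.0373), or without resistant 1 replicate 3 (0.48, adjusted p = 0.0141) or vehicle replicate 1 (0.52, adjusted p = 0.00877).

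Resistant 2 against resistant 1 in batch 2 compares the biological replicates of the cells labelled resistant. FOSL1, EGR3 and IER2 were higher in resistant 2, 3 of 10 genes tested, with 24.4% of all genes called and 12.4% called higher. Their log2 fold changes were 0.88 ± 0.20 (adjusted p = 0.00646), 2.02 ± 0.51 (adjusted p = 0.0111) and 0.51 ± 0.15 (adjusted p = 0.0239), and the groups did not overlap for any of them. EGR1, at 1.30 ± 0.61 (adjusted p = 0.167), and JUNB, at 0.35 ± 0.17 (adjusted p = 0.143), did not pass, nor did FOS, FOSB, FOSL2, JUN and JUND. The JUNB value passed with the library number as a block (0.34, adjusted p = 0.0477) and without resistant 2 replicate 2 (0.50, adjusted p = 0.0276). Without resistant 1 replicate 1 or replicate 3 a single gene was called, since EGR3 (1.48 and 1.76) and IER2 (0.53 and 0.38) were lost. Without resistant 1 replicate 2 EGR3 was 3.48 and stayed called. IER2 was also lost without resistant 2 replicate 1 (0.44) or replicate 3 (0.51).

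The difference between the batches in the log2 fold change of resistant 1 against vehicle was tested itself, as batch 2 minus batch 1. FOSL2 fell by less in batch 2 (0.97 ± 0.17, adjusted p = 0.000251). FOSB was lower in batch 2, where vehicle libraries averaged 5.24 CPM, and not in batch 1, where they averaged 2.07 CPM (-1.65 ± 0.38, adjusted p = 0.00294). JUND was higher in batch 1 and not called in batch 2 (-0.89 ± 0.14, adjusted p = 0.000114), and EGR3 differed by -3.45 ± 1.218 (adjusted p = 0.0374) on 6 counts of resistant 1 in batch 1. These were 4 of 10 genes, with 33.2% of all genes called. JUN (-0.043 ± 0.35), EGR1 (-0.0068 ± 0.67), FOSL1 (0.085 ± 0.25), IER2 (0.13 ± 0.18) and JUNB (0.35 ± 0.17) did not pass.

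For FOS the difference of 1.70 ± 0.96 missed the threshold (adjusted p = 0.216). It passed with the library number as a block (1.54, adjusted p = 0.0106) and without resistant 1 replicate 3 of batch 2 (2.12, adjusted p = 0.0431). The EGR3 call was lost with the block (-3.44, adjusted p = 0.0606), without any 1 of the 3 vehicle libraries of batch 1, without resistant 1 replicate 1 or 3 of batch 1 (-2.63 and -3.34) and without resistant 1 replicate 3 of batch 2 (-3.20). Among all genes called in this test 45.1% were higher, against 53.1% with DESeq2 size factors, 52.03% with DESeq2 and 58.9% with upper quartile scaling, which moved the median of all genes by 0.11 on the log2 scale.

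The spread between replicate libraries was wide for several of these genes. It was wider in batch 2, both for these genes and for other genes of similar level. The median SD of log2(CPM + 1) over the 10 genes was 0.0909 in K562, 0.104 in parental, 0.0966 in vehicle and 0.135 in resistant 1 of batch 1. For genes within 2-fold of each level the median was 0.0806, 0.0779, 0.0643 and 0.0806 in these groups. It was 0.174 in vehicle, 0.297 in resistant 1 and 0.271 in resistant 2 of batch 2, where the median over genes within 2-fold of each level was 0.105, 0.139 and 0.161. A pseudocount of 0.25 in place of 1 raised the values of resistant 1 and resistant 2 in batch 2 to 0.460 and 0.338. EGR1 in resistant 1 of batch 2 had an SD of 1.23, with a highest library 5.42 times its lowest. FOS there had an SD of 1.12 and a ratio of 7.85, and JUN one of 0.669 and a ratio of 2.44. By contrast JUND (0.0538) and FOSL2 (0.0915) in the same 3 libraries varied less than the median gene of their level (0.13 and 0.175).

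The libraries of batch 2 with the same number in their labels moved together for some of the genes. FOS, EGR1 and JUNB were highest in library 1 of vehicle, resistant 1 and resistant 2 alike. This pattern was held by 3 of the 10 genes and by 4.65% of 10159 genes. FOS was also lowest in library 3 in all 3 groups, as were 4.25% of genes, and none of the 10 genes was highest in library 1 of all 4 groups of batch 1 (1.43% of genes). Library 1 was also the most deeply sequenced of each batch 2 group, at 51.3, 49.6 and 43.7 M counts, and the part of depth was not tested.

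**Figure D3:**
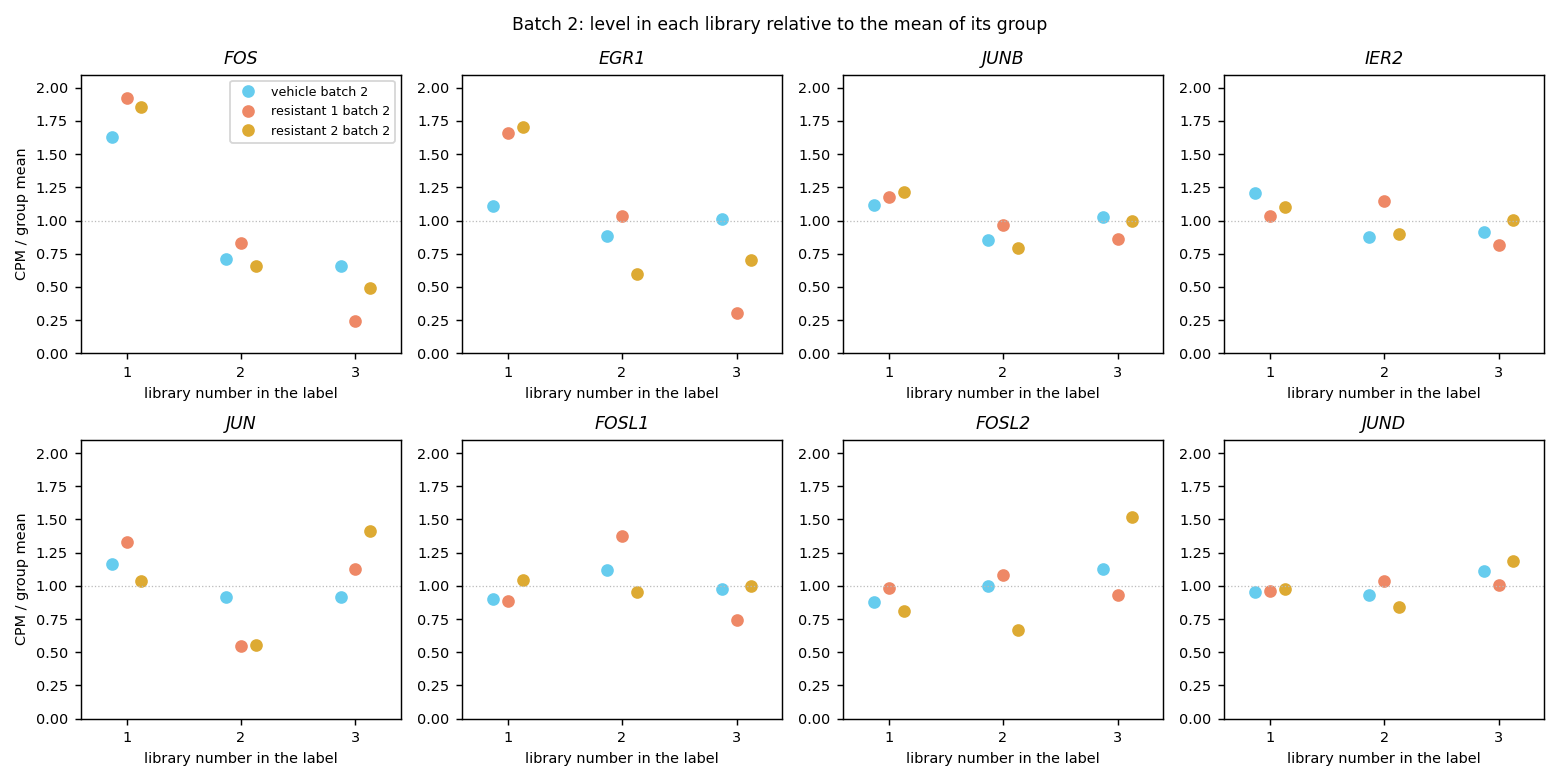
CPM divided by the mean of its group (y axis, linear) for 8 of the genes in the 3 libraries (x axis) of the batch 2 groups; each point is 1 library and a dotted line marks the group mean. FOS, EGR1 and JUNB are above the mean in library 1 of all 3 groups and JUN is below it in library 2.

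Deviations of log2(CPM + 1) from the group mean show which genes varied together between libraries. Over 21 libraries, Pearson's r of FOS with EGR1 was 0.87 (Spearman's rho 0.75), with JUNB 0.75 (rho 0.69) and with IER2 0.73 (rho 0.70). The FOS and EGR1 value was 0.50 in the 12 libraries of batch 1 and 0.90 in the 9 of batch 2, and 0.74 without the 2 farthest libraries. JUNB correlated with EGR1 at 0.71 (0.20 in batch 1 and 0.81 in batch 2) and with IER2 at 0.71 (0.67 and 0.72). FOSL2 correlated with JUND at 0.77 (0.46 in batch 1 and 0.92 in batch 2). Without the 2 farthest libraries these were 0.59, 0.66 and 0.54, and FOS stood at 0.69 with JUNB and 0.71 with IER2. JUN had an r of 0.16 with FOS, 0.098 with EGR1 and 0.52 with JUNB in batch 2. Of the 45 gene pairs 6 were above 0.7 and the median was 0.16. The same share was not computed over pairs of all genes. These values are descriptions, since genes of 1 library share its handling, depth and scaling.

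The genes most like FOS over the same 21 deviations, among 10158 others averaging at least 5 CPM in both batches, were TXLNA (r = 0.94), EGR1 (0.87) and NKTR (0.86). Those most like EGR1 were CD69 (0.92), an early activation antigen of leukocytes, FOS (0.87) and GLIPR1 (0.87). Those most like JUN were CHKA (0.96), a choline kinase, KLHDC8B (0.95) and ZNF429 (0.94). Each of these was closer in batch 2 (0.90 to 0.99) than in batch 1 (0.28 to 0.71).

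**Figure D4:**
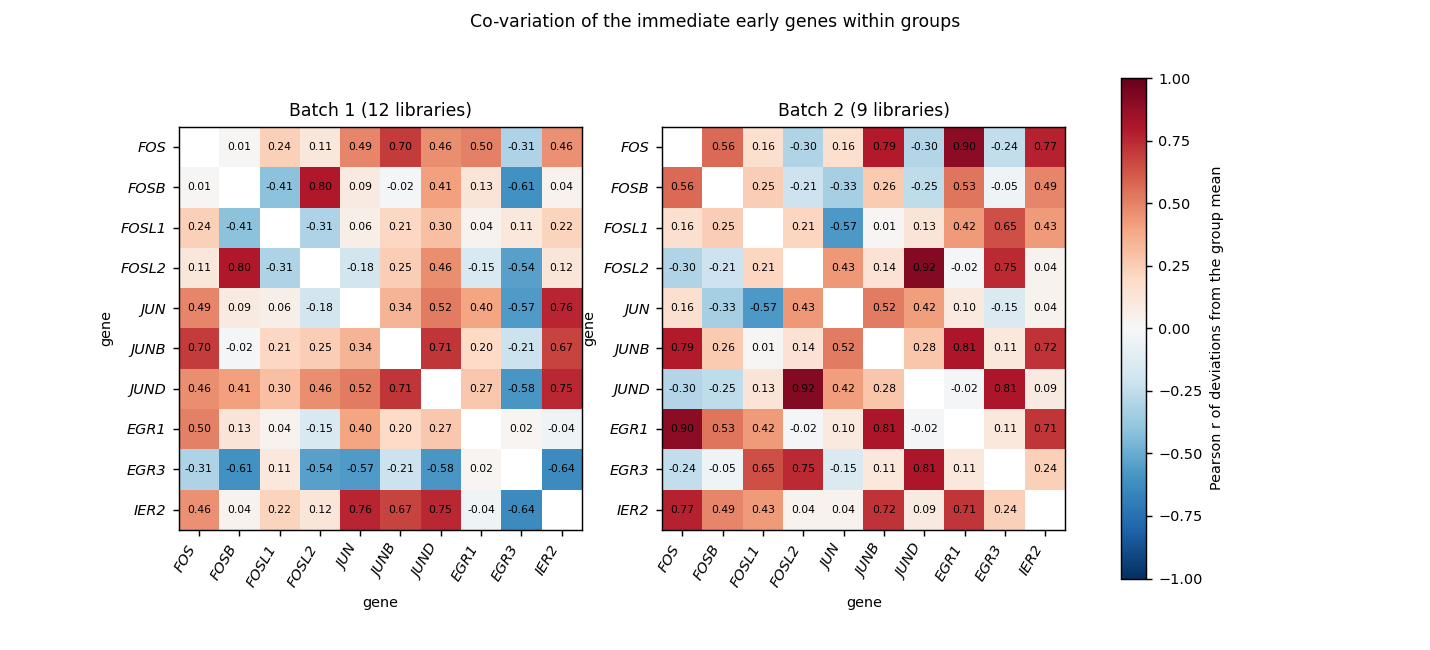
Pearson's r (colour and number) between the genes for deviations of log2(CPM + 1) from the group mean, in the 12 libraries of batch 1 and the 9 of batch 2. The block of FOS, JUNB, EGR1 and IER2 reaches 0.71 to 0.90 in batch 2. In batch 1 the same pairs run from -0.045 (EGR1 with IER2) to 0.70 (FOS with JUNB), and EGR3 rests on few counts there.

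Genes around AP-1 and EGR were read from lists of partners, other immediate early genes and upstream regulators. In resistant 1 against vehicle of batch 1, 5 of 14 tested AP-1 and leucine zipper partner genes were higher and 8 lower, with a median log2 fold change of -0.41 against 0.023 over all genes, of which 44.0% were higher and 42.1% lower. CREM, which encodes activators and early repressors acting at cyclic AMP response elements, rose from 4.56 ± 0.404 to 28.4 ± 1.26 CPM (SD, n = 3; log2 fold change 2.73, adjusted p = 1.84e-19). ATF3, a stress-induced leucine zipper factor, rose from 3.30 to 13.2 CPM (2.09, adjusted p = 1.81e-14). BATF, an AP-1 partner of leukocytes, fell by 6.27 on the log2 scale (adjusted p = 1.55e-22). In K562 of the same batch CREM averaged 29.9 CPM, ATF3 6.89 CPM and BATF 0.492 CPM. In batch 2 ATF3 rose from 4.59 to 32.04 CPM in resistant 1 (2.78, adjusted p = 2.08e-05) and to 91.1 CPM in resistant 2 (4.29, adjusted p = 7.89e-07), and the difference between these resistant groups passed too (1.51, adjusted p = 0.00608).

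Of 26 other immediate early genes tested in resistant 1 against vehicle of batch 1, 8 were higher and 17 lower, with a median log2 fold change of -1.10, beside 44.0% and 42.1% of all genes. IER3, an early survival gene, rose by 3.03 (adjusted p = 2.55e-17) and DUSP1, a phosphatase that switches off MAP kinases, by 2.78 (adjusted p = 2.02e-16) on the log2 scale. IER3 averaged 12.8 CPM in resistant 1 and 10.4 CPM in K562. DUSP1 was at 11.5 to 12.3 CPM in resistant 1 and 8.55 to 10.7 CPM in K562. GADD45B, a stress response gene, had a log2 fold change of -4.10 (adjusted p = 1.02e-19) and KLF4, a zinc finger factor of monocytes, one of -4.02 (adjusted p = 1.2e-18). In batch 2, 9 of 29 were higher and 16 lower in resistant 1, and 10 higher and 14 lower in resistant 2. Over all genes 39.9% were higher and 35.8% lower in resistant 1, and 40.2% and 35.9% in resistant 2. CITED2, a transcriptional coregulator, had log2 fold changes of -3.89 (adjusted p = 2.1e-13) and -3.48 (adjusted p = 4.05e-13). ZFP36L1, which promotes mRNA decay, rose by 5.40 (adjusted p = 3.56e-11) and 5.08 (adjusted p = 6.34e-11). Between resistant 2 and resistant 1, 10 of 29 were higher and 1 lower, beside 12.4% and 11.9% of all genes, led by PHLDA1 (2.83, adjusted p = 0.00433) and RHOB (1.58, adjusted p = 0.000372). These 11 calls became 5 with only the 2 groups fitted. They became 4 without replicate 1 or 3 of resistant 2 or replicate 3 of resistant 1, and 6 without replicate 1 or 2 of resistant 1.

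Among 25 upstream kinases and transcription factors, 7 were higher and 15 lower in resistant 1 against vehicle of batch 1 (median log2 fold change -0.39), 5 and 15 in batch 2 (-0.50), and 4 and 15 for resistant 2 (-0.58). Called either way were 88%, 80% and 76% of the list, near the 86.0%, 75.7% and 76.1% of all genes. By direction, 44.0%, 39.9% and 40.2% of all genes were higher and 42.1%, 35.8% and 35.9% lower. Lower calls were thus a larger share of this list than of all genes. RPS6KA2, a ribosomal S6 kinase of growth factor signalling, had log2 fold changes of -3.24 (adjusted p = 6.86e-20) in resistant 1 of batch 1 and -3.79 (adjusted p = 3.09e-09) in batch 2. It averaged more in resistant 2 than in resistant 1 of batch 2 (22.4 against 4.01 CPM, log2 fold change 2.50, adjusted p = 6.1e-06). In batch 1 it was also higher in vehicle than in parental (22.5 against 4.58 CPM, log2 fold change 2.27, adjusted p = 1.66e-15). MRTFA, a coactivator of serum response factor, had log2 fold changes of -2.79 (adjusted p = 4.23e-11) and -2.84 (adjusted p = 3.42e-11) in resistant 1 and resistant 2 of batch 2, and of -2.71 (adjusted p = 1.15e-19) in K562 against parental.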

How the data were processed

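Gene expression was measured by strand-specific mRNA sequencing in 21 libraries, 3 per group. The authors deposited raw counts per gene symbol, 1 table per sequencing batch, without normalization. The submitters' processing notes name hg38 as the genome build and DESeq2 1.22.1. The names of the deposited tables mention STAR, and no source used here gives its version, the annotation or a strand setting. No column was left without a sample (0). Groups came from the labels. edgeR 4.0.16 in R 4.3.3 was run on the deposited counts, per batch, with TMM scaling, filterByExpr, robust quasi-likelihood fits of group means, two-sided F tests and Benjamini-Hochberg adjustment over all genes tested, and genes were called at an adjusted p under 0.05. The 3 OCI-AML3 groups of batch 1 shared a fit, as did the 3 groups of batch 2. Comparisons with K562 used the 6 libraries compared, and the difference between batches used 12 libraries.

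The 10 genes, the companion lists and the tests were chosen with earlier results of these data known. By rule, all 10 genes are named in every comparison. From each companion list up to 2 genes called higher and 2 called lower are named per comparison, those with the greatest change among genes averaging at least 10 CPM in the higher group without overlap, and MRTFA, RPS6KA2 and ATF3 were followed across comparisons after their values were seen. Some genes that the rule names are not reported here. Spread and co-variation used log2(CPM + 1) for all 10 genes. Searches and shares over all genes there used those averaging at least 5 CPM in both batches, and level-matched genes had no minimum. Lists held 141 genes with the 10, of which 4 were matched by an older symbol. The fits were tested on simulated data, where the difference between batches recovered fewer of the smaller changes than the other comparisons did.

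Libraries of 1 number in batch 2 deviated together from their group means across 10159 genes, with correlations of 0.10 to 0.39 for every pair of groups and each number. In batch 1 they ran from -0.38 to 0.33. The pairing in batch 2 is read from these values and not from the labels, and 1 vehicle library took its number from its library name because its title is garbled. No replicate libraries agreed within sampling noise. Alternatives were other scalings (DESeq2 size factors, upper quartile), no low-count filter, DESeq2 1.42.0, other groups in the fit, the replicate number as a block, leaving out each replicate and, for the spread, another pseudocount and CPM without TMM.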

Additional observations from a re-analysis of the deposited data

Results flagged for a closer look

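The log2 fold change of resistant 1 against vehicle differed between the sequencing batches for 4 of the 10 genes, by the edgeR test of the difference itself (batch 2 minus batch 1, Benjamini-Hochberg adjustment). FOSB differed by -1.65 (adjusted p = 0.00294), with vehicle means of 2.07 CPM in batch 1 and 5.24 CPM in batch 2. FOSL2 differed by 0.97 (adjusted p = 0.000251), with resistant 1 means of 3.06 and 6.39 CPM. JUND differed by -0.89 (adjusted p = 0.000114), with vehicle means of 37.4 and 62.3 CPM against resistant 1 means of 55.4 and 53.8 CPM. EGR3 differed by -3.45 (adjusted p = 0.0374), with vehicle means of 0.523 and 10.04 CPM. The batches differ in depth and in the spread between libraries, and their part in these differences was not tested.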

How the results depend on the processing

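The count of genes called stayed within 1.5 times the reported one in 99 of 101 values over these settings. The exceptions were resistant 2 against resistant 1 in batch 2 without resistant 1 replicate 1 or 3, where the range over left-out libraries was 1 to 4 of 10. With a left-out library the counts ran from 7 to 8 (resistant 1 against vehicle, batch 1), 6 to 8 (batch 2), 7 to 8 (resistant 2 against vehicle), 5 to 6 (vehicle against parental), 8 to 9 (K562 against parental), 7 to 9 (resistant 1 against K562) and 3 to 4 (the difference between batches).

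With the replicate number as a block, the batch 2 counts were 8 for resistant 1 against vehicle, 8 for resistant 2 against vehicle and 4 for resistant 2 against resistant 1, and it was 4 for the difference between batches. Apart from the calls named with the results, the block changed no other call in batch 2. In batch 1 libraries share only a number, and there the block added EGR1 in K562 against parental (0.20, adjusted p = 0.00181, edgeR).

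Of 962 fold changes of single genes, 893 kept direction and call, 26 lost the call, 15 gained it and 28 changed sign, and none of the 28 was a called value. FOSB in resistant 1 against vehicle of batch 1 became -0.0045 with DESeq2 size factors, -0.0075 with upper quartile scaling and -0.024 with only the groups compared, and ran from -0.16 to 0.25 with a left-out library. In the difference between batches, JUN became 0.023, 0.062 and 0.020 and EGR1 0.057, 0.10 and 0.040 with DESeq2 size factors, upper quartile scaling and DESeq2. Left-out libraries gave -0.31 to 0.25 for JUN, -0.58 to 0.42 for EGR1 and -0.21 to 0.25 for FOSL1 there. They gave -0.15 to 0.74 for EGR1 in resistant 2 against vehicle and -0.033 to 0.070 for IER2 in vehicle against parental. In resistant 2 against resistant 1 they gave -1.24 to 0.46 for FOS, -0.59 to 0.032 for JUN, -0.11 to 0.54 for FOSL2 and -0.090 to 0.16 for JUND. The cause was not tested. Counting error weighs most on EGR3 in batch 1, with at most 12 counts a library, and on FOS and FOSL2 where they were low.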

Other observations

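AP-1 and EGR target genes and heat shock genes were read from lists of 18 and 11 genes. In resistant 1 against vehicle of batch 1, 5 of 17 tested targets were higher and 11 lower, with a median log2 fold change of -2.34 against 0.023 over all genes, of which 44.0% were higher and 42.1% lower. TNF, an inflammatory cytokine, stood at 139 ± 9.70 CPM in parental and 139.9 ± 5.06 CPM in vehicle (SD, n = 3). It had 0, 0 and 1 counts in resistant 1. MMP9, a matrix protease, stood at 13.5 ± 0.663 CPM in parental and 244 ± 11.9 CPM in vehicle. It had 0, 1 and 2 counts in resistant 1. ICAM1, an adhesion receptor, rose from 8.13 ± 0.636 to 36.8 ± 0.723 CPM (SD, n = 3; log2 fold change 2.26, edgeR adjusted p = 6.69e-19), and VEGFA, an angiogenic growth factor, by 0.86 (adjusted p = 4.72e-14). In K562 of batch 1 ICAM1 averaged 36.4 CPM and VEGFA 89.6 CPM. In batch 2, 5 of 16 targets were higher and 10 lower in resistant 1, beside 39.9% and 35.8% of all genes. For resistant 2, 6 were higher and 10 lower, beside 40.2% and 35.9% of all genes. TNF stood at 23.1 ± 6.65 CPM and MMP9 at 34.5 ± 9.75 CPM in vehicle there, with at most 5 counts of either in any library labelled resistant. ICAM1 rose there by 2.74 (adjusted p = 3.36e-07) and 1.94 (adjusted p = 7.72e-06), and PLAU, the urokinase gene, by 2.60 (adjusted p = 2.69e-05) and 1.96 (adjusted p = 0.000276). Between resistant 2 and resistant 1, CD44 (1.74, adjusted p = 2.01e-05) and CCND1 (1.68, adjusted p = 1.83e-06) were higher in resistant 2, and ICAM1 was lower (-0.79, adjusted p = 0.0247).

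Heat shock genes are another group that responds to stress within minutes. In resistant 1 against vehicle of batch 1, 6 of 11 were higher and 2 lower (median log2 fold change 0.41), while in batch 2 4 were higher and 6 lower in resistant 1 (-0.63) and 5 and 6 in resistant 2 (-0.66). Over all genes 44.0% were higher and 42.1% lower in resistant 1 of batch 1. In batch 2 these shares were 39.9% and 35.8% in resistant 1, and 40.2% and 35.9% in resistant 2. The inducible HSPA1B stood at 147 ± 8.49 CPM in resistant 1 and 17.9 ± 0.846 CPM in vehicle of batch 1 (log2 fold change 3.12, adjusted p = 3.77e-25), and HSPA1A at 191 ± 16.04 and 48.5 ± 2.66 CPM (2.07, adjusted p = 1.31e-21). In K562 of the same batch HSPA1B stood at 154 ± 5.42 CPM and HSPA1A at 201 ± 8.38 CPM. HSPA1A and HSPA1B are near-identical copies, so counting may have split their reads. HSPA8, the constitutive relative, had log2 fold changes of -1.35 (adjusted p = 4.53e-06) and -1.28 (adjusted p = 7.68e-06) in resistant 1 and resistant 2 of batch 2, and HSPH1, a co-chaperone, of -1.23 (adjusted p = 2.2e-06) and -1.12 (adjusted p = 5.44e-06). In vehicle against parental, 9 of 11 heat shock genes were lower, beside 18.3% of all genes, HSPB1 and HSPE1 did not pass, and FOS and FOSB were lower too, with HSPA8 down by 0.78 (adjusted p = 4.46e-15) and HSPA1A by 0.67 (adjusted p = 4.07e-09) on the log2 scale.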
